A study of Mus musculus with 72 samples.

Results

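The 48 genes described here are the mitosis and spindle genes of activated mouse CD8+ T cells, taken as a list of GENCODE M25 symbols and matched to the gene identifiers of the deposited count table. Each of the 48 was found once among 55487 genes, and each passed the filter on low counts in every fit, so no member is missing from any comparison. RNA-seq was available for 52 libraries in 13 groups of 4, all from splenocytes of OT-I mice, which carry a transgenic T cell receptor for SIINFEKL, a peptide of ovalbumin. Red cells had been lysed, and the cultures were stimulated with that peptide at 10 ng/mL and recombinant human IL-2 at 100 IU/mL. At 4, 24 and 48 h the groups were cells in medium without glutamine, cells with 1 µM DON (a glutamine analog that blocks enzymes using glutamine), cells with 1 µM CB-839 (an inhibitor of glutaminase) and vehicle cells, and 1 further group was unstimulated. The protocols name DMSO as the solvent of CB-839 and PBS as that of DON, and 1 vehicle group stands for both, so the comparisons with vehicle at a time share their 4 vehicle libraries. The labels call the cells CD8+ T cells and state neither the age of the mice nor whether libraries A to D of each condition are different mice or cultures, so the p-values measure the spread between these libraries, which may be technical.

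Mitosis divides the copied chromosomes between daughter cells. Cyclin A and cyclin B activate the kinase Cdk1 to start it, the Polo-like and Aurora kinases build the spindle, kinetochores tie chromosomes to microtubules, and the anaphase promoting complex with Cdc20 ends it by marking cyclin B and securin (Pttg1) for destruction. Most of these genes are little expressed in resting lymphocytes and are transcribed in late S phase, G2 and M, through promoters that carry boxes for NF-Y and the cell cycle homology region, which binds the DREAM and MuvB complexes. A naive CD8+ T cell enters a run of fast divisions some time after its receptor is engaged.

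Promoters of the members are printed first because these shared letters are known for timing mitotic transcription. The RefSeq promoter table (build GRCm38.p6) held 42 windows, each from 250 bases before to 50 bases after a gene start, for 40 of the 48 members, with 2 windows each for Ect2 and Prc1. The members named without a window are Ccna2, Cdc25c, Tpx2, Aurkb, Incenp, Spc24, Kif20a and Cdca2. The lines below give 130 bases before to 30 bases after the start, 5′ to 3′ on the gene's strand. They cover the members with the lowest fold changes at 24 h (Plk1, Ube2c and Hmmr without glutamine, Cdc20, Plk1 and Aurka with DON). Pttg1 and Cdc25b, which with vehicle at 24 h were not called higher than in unstimulated cells, are also given. Capitals mark the NF-Y box, whose letters are CCAAT, and the cell cycle homology region, whose letters are TTTGAA or, in some genes, TTTAAA, each read on either strand.
Plk1 (chr7:122159305-122159464, plus strand): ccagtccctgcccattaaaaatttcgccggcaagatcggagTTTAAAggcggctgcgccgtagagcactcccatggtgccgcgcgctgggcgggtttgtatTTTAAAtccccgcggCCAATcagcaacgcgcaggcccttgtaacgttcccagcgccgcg
Ube2c (chr2:164769799-164769958, plus strand): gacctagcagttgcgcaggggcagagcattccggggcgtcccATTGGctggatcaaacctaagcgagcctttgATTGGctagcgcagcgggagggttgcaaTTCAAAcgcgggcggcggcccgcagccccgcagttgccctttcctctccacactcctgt
Hmmr (chr11:40733408-40733567, minus strand): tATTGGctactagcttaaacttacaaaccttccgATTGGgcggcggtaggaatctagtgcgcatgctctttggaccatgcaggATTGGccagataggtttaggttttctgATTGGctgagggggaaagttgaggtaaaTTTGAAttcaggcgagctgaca
Cdc20 (chr4:118437314-118437473, minus strand): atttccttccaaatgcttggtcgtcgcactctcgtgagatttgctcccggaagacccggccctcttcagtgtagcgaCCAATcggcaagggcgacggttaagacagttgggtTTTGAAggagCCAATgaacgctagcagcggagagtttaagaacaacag
Aurka (chr2:172370541-172370700, minus strand): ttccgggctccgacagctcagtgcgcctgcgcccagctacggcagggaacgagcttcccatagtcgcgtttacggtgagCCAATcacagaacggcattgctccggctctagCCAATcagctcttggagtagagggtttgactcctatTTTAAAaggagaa
Pttg1 (chr11:43425952-43426111, minus strand): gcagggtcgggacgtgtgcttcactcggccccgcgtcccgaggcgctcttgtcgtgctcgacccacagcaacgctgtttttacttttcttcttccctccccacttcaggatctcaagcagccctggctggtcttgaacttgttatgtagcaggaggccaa
Cdc25b (chr2:131186818-131186977, plus strand): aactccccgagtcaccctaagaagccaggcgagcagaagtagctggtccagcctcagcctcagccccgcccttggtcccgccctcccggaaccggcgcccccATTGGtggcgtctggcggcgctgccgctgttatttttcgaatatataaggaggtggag

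The Pttg1 window held none of the letters searched for and the Cdc25b window held only the CCAAT letters, whereas the other 5 printed promoters held both. Only the TTTGAA and TTTAAA spellings of the homology region were searched. Near spellings, such as the ttcgaa in the Cdc25b and Bub1 windows, were not counted. The printed Pttg1 window, with its upstream end at 43426111, lay inside the gene of the count table. That gene begins at chr11:43426251 on the minus strand, so letters around that start were not read. Over both strands of the full windows, CCAAT was found in 33 of 42 member windows (78.6%), against 37.4% of all 32851 windows in the table. The homology region letters were also in 33 member windows (78.6%), against 27.6% of all windows. TTTGAA alone was in 30 member windows (71.4%, against 17.9% of all) and TTTAAA in 10 (23.8%, against 13.2%). Both motifs stood together in 29 member windows (69%), against 10.7% of all windows. The first base of a CCAAT match lay at a median of -62 bases from the gene start over 79 member matches, against -92 over all windows. That of a homology region match lay at -10 over 50 matches, against -127 over all windows. The windows of Bub1 and Cks2 held neither spelling of the homology region that was searched, and those of Birc5 and Anln no CCAAT. All of these members rose with vehicle by 24 h. The relation of the letters to RNA levels was not tested. A match is a description of letters, not of a bound site, and neighbouring windows of 1 gene share sequence.

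**Figure D1:**
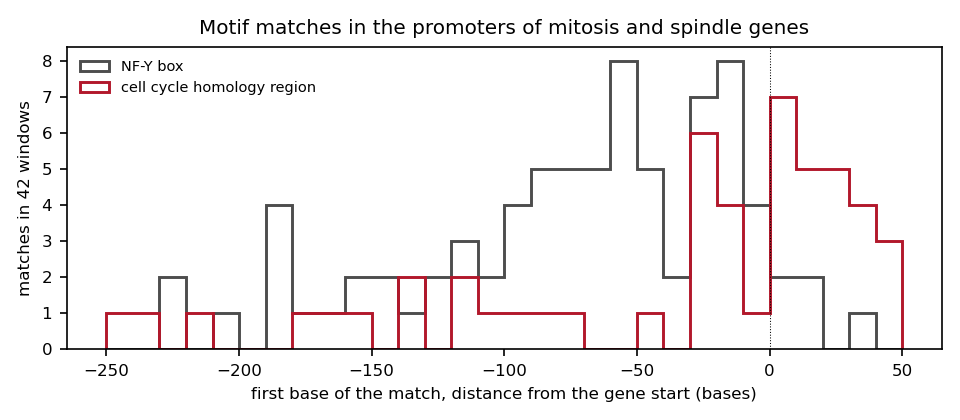
Number of motif matches (y axis) by the distance of their first base from the gene start in bases (x axis, bins of 10), in 42 promoter windows of mitosis and spindle genes, with the NF-Y box in grey and the cell cycle homology region in red. The NF-Y boxes lie mostly upstream of the start, with a median at -62 bases, and the median homology region match lies at -10 bases.

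Library totals ran from 25626587 to 51005409 counts. The list of 13 CD8 T cell markers summed to 3736 to 9348 CPM over the 52 libraries, and unstimulated cells had 1202 to 1302 CPM of Cd8a, against at most 0.0614 CPM of Cd4 (CPM, counts scaled to a library total of 1000000). Marker lists of other cells summed to 2.73 to 398 CPM (B cells), 2.30 to 409 CPM (myeloid cells), 0.871 to 64.9 CPM (erythroid cells) and 12.6 to 52.5 CPM (NK cells). The CD4 list summed to 22 to 446 CPM and holds Ctla4 and Cd40lg, which activated CD8+ T cells can also express. In a bulk sample fewer cells in division and less RNA per cell cannot be told apart. The libraries were described as stranded but counted without a strand option, so Ube2c, 22.8% of whose exon bases overlap Tnnc2 on the opposite strand, and Kif20a, 29.3% of whose exon bases overlap Cdc23, are uncertain.

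The summed level of the 48 genes separated the conditions most at 24 h. The members took 0.0755 to 0.104% of all counts in the 4 libraries without glutamine, 0.454 to 0.570% with DON, 0.805 to 0.864% with CB-839 and 0.734 to 0.822% with vehicle. The libraries without glutamine and those with DON lay apart from the vehicle libraries and from each other. At 48 h the ranges were 0.746 to 0.810% without glutamine, 0.659 to 0.698% with DON, 0.769 to 0.819% with CB-839 and 0.698 to 0.854% with vehicle. The glutamine-free and CB-839 ranges lay inside the vehicle range, and the DON range ended just below the lowest vehicle library. Unstimulated cells had 0.0829 to 0.102%, so the summed share of glutamine-free cells at 24 h overlapped that of cells never stimulated. The sums differed in make-up. Racgap1, Cdc25b and Cenpa averaged 149, 107 and 85.9 CPM unstimulated, against 33.7, 7.20 and 11.4 CPM without glutamine at 24 h. Others went the other way, such as Cdk1 (6.72 against 25.1 CPM), Top2a (56.3 against 171 CPM) and Mad2l1 (16.6 against 38.7 CPM). These differences were not tested. Per length, the highest vehicle levels at 24 h were those of Cdc20 at 141 ± 17.8 RPKM, Cks2 at 111 ± 7.31 RPKM and Top2a at 97.7 ± 9.40 RPKM, and the lowest were those of Anln at 3.29 ± 0.160 RPKM and Cdc25c at 4.07 ± 0.369 RPKM (RPKM, CPM per kilobase of exon; SD, n = 4).

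**Figure D2:**
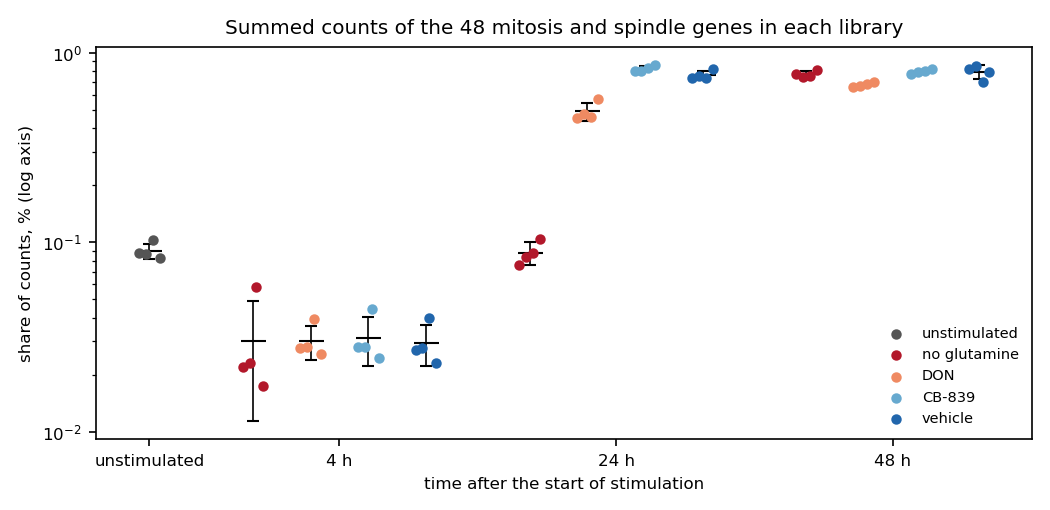
Share of all counts taken by the 48 genes, in percent on a log axis, in each of 52 libraries by time and condition (points), with the group mean and SD in black (n = 4). Glutamine-free libraries at 24 h lie at the level of unstimulated cells and DON libraries lie between them and vehicle, while at 48 h all groups lie between 0.659 and 0.854%.

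Activation itself was compared between vehicle cells and unstimulated cells. At 4 h, 45 members fell and 1 rose, at an adjusted p under 0.05 in edgeR's quasi-likelihood test, against 41% of all genes tested that fell and 33.9% that rose. The median log2 fold change was -0.86, beside -0.21 over all genes. The largest falls were those of Cdc25b, a phosphatase that activates Cdk1 (-4.09 ± 0.083, log2 fold change ± SE), Racgap1, a GTPase activator of the cytokinetic ring (-4.08 ± 0.11), and Cenpa, the centromeric histone (-2.22 ± 0.095). Racgap1 had 7.49, 6.52, 9.90 and 6.24 CPM in vehicle libraries at 4 h, against 157, 141, 155 and 145 CPM in unstimulated ones, with no overlap. Per length, Cdc25b (28.8 ± 0.680 RPKM), Cks2 (22.6 ± 2.92 RPKM) and Racgap1 (21.1 ± 1.10 RPKM) had the highest levels of the 48 in unstimulated cells (SD, n = 4). Cdca2, which targets protein phosphatase 1 to chromatin, was the member that rose (0.55 ± 0.085, adjusted p = 8.3e-06). Cdc20 (-0.086 ± 0.15, adjusted p = 0.62) and the kinase Melk (-0.42 ± 0.23, adjusted p = 0.10) did not pass. B cell markers were higher in this comparison, 7 of 10 at a median log2 fold change of 2.29. Myeloid markers summed to 32 to 210 CPM in unstimulated libraries, against 29.4 to 136 CPM in vehicle libraries at 4 h. Unstimulated library C was the highest of its group for these markers (210 CPM). It was also the highest for the summed members (1023 CPM, against 829 to 879). The part of B and myeloid cells in the members' values was not tested.

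By 24 h, 46 of 48 members had risen in vehicle cells over unstimulated ones, against 38.7% of all genes, with a median log2 fold change of 4.18 beside -0.18 over all genes. Ccnb1, cyclin B1, rose most (5.71 ± 0.17), followed by Melk (5.35 ± 0.19) and Cdk1 (5.29 ± 0.24). Plk1, the Polo-like kinase, had 205, 208, 163 and 206 CPM in vehicle libraries at 24 h, against 7.16, 7.46, 9.99 and 7.04 CPM in unstimulated ones. Cdk1 had 207, 212, 211 and 231 CPM in vehicle libraries, against 6.17, 5.85, 9.99 and 4.88 CPM in unstimulated ones. Every vehicle library was above every unstimulated one for both genes. Pttg1 (-0.017 ± 0.10, adjusted p = 0.87) and Cdc25b (0.012 ± 0.07, adjusted p = 0.88) did not pass, and the direction of both changed with the scaling or the filter. Under library totals alone both were called lower at 24 h. Within vehicle cells both had lower means at 4 h (5.38 CPM for Cdc25b, 10.5 CPM for Pttg1) than at 24 h (88.2 and 25.2 CPM). That change from 4 to 24 h was not tested. Pttg1 had 25.5, 26.4, 24.5 and 24.5 CPM in vehicle libraries at 24 h, against 32.8, 29.9, 30.1 and 32.7 CPM in unstimulated ones, lower in every library before TMM scaling. At 48 h, 46 members were above unstimulated cells, against 38.3% of genes, and 1 below, against 45.1%. The median was 4.24, and Ccnb1 (5.80 ± 0.17), Hmmr (5.34 ± 0.23) and Ccna2 (5.02 ± 0.18) were highest. The member below was Cdc25b (-0.17 ± 0.07, adjusted p = 0.036), a call lost when the fit held only the libraries compared. Racgap1, high before stimulation, had the smallest rise among those that passed (0.91 ± 0.095 at 24 h and 0.80 ± 0.095 at 48 h). Between 24 and 48 h in vehicle cells, 12 members were higher at 48 h and 5 lower, against 21.4% and 20.7% of genes, led by Ccnb2, cyclin B2 (1.04 ± 0.059). Nek2, a centrosome kinase (0.60 ± 0.076), and the checkpoint kinase Bub1b (0.42 ± 0.068) also rose, while Kif23 (-0.43 ± 0.089), Melk (-0.37 ± 0.073) and Cdk1 (-0.30 ± 0.084) fell. In the fit of all 52 libraries these counts were 3 and 1.

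At 4 h, few members passed the test between treated and vehicle cells. Without glutamine 1 member was higher, against 16.2% of genes, and 1 lower, against 21.4%. These were Kif23 (0.40 ± 0.13, adjusted p = 0.019) and Incenp, the scaffold of the chromosomal passenger complex (-0.38 ± 0.13, adjusted p = 0.035). The Incenp call was lost under library totals alone, with no filter on low counts, when just these 8 libraries were fitted, and without glutamine-free library A, B or D or vehicle library A, B or C. The Kif23 call was lost without glutamine-free library C or vehicle library B or D. The values furthest from 0 among the other members were 0.56 ± 0.45 for Cdc25c, 0.45 ± 0.44 for Ndc80, -0.33 ± 0.27 for Cdc20 and -0.29 ± 0.45 for Cenpf, none of which passed. With DON no member and no gene of the table (0.0%) passed. At an unadjusted p under 0.05, DON reached 0 members and 1862 genes, and DESeq2 called 0 members. The furthest DON values were 0.69 ± 0.45 for Cdc25c, 0.42 ± 0.49 for Kif2c, 0.27 ± 0.46 for Birc5, -0.25 ± 0.49 for Espl1, -0.25 ± 0.48 for Cenpe and -0.15 ± 0.51 for Aurkb. With CB-839, Cks2, a small subunit of Cdk1 complexes, passed (0.34 ± 0.10, adjusted p = 0.039), against 5.85% of genes. The Cks2 call was lost under library totals alone, with no filter on low counts, and when any single library other than vehicle library C was left out. Cenpa (0.42 ± 0.21), Nusap1 (0.35 ± 0.44), Cenpe (-0.32 ± 0.48), Melk (-0.26 ± 0.64) and Spc24 (-0.22 ± 0.39) did not. When the 8 libraries compared were fitted alone and blocked by letter, which the pairing of these libraries allows, CB-839 gave 5 higher and 1 lower. The share of all genes that passed in that fit is not given here.

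In each 4 h group library C had the highest summed member level, as it did among unstimulated libraries (1023 CPM, against 829 to 879). By Dixon's criterion, described further below, this sum lay apart at 4 h without glutamine and with DON, but not with CB-839 or vehicle. Library C had a summed member level of 581 CPM without glutamine, against 174 to 231 CPM in the other 3 libraries of that group. It was also the highest with DON (393 CPM, against 256 to 279), with CB-839 (444, against 244 to 281) and with vehicle (398, against 229.9 to 277). Without glutamine 48 of 48 members were highest in library C, and with vehicle 47. Myeloid markers summed to 409 CPM in that glutamine-free library, against 24.9 to 72.7 CPM in the other 3, and to 136 CPM in the vehicle library C, against 29.4 to 54.8. B cell markers summed to 398 CPM in the glutamine-free library C, against 22 to 326. The part of these cells in the members' levels was not tested. With library C of all 4 groups left out, a choice made after seeing the data, the count without glutamine became 1 higher and 17 lower. With DON it stayed at 0, and with CB-839 it was 2 higher and 0 lower. When only the glutamine-free library C was left out, 12 members were called lower without glutamine. The shares of all genes called in these refits are not given here, so the counts cannot be set beside them.

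At 24 h without glutamine every one of the 48 members was lower than with vehicle, against 28.9% of genes tested. The median log2 fold change was -3.50, beside 0.025 over all genes. Among cyclins and Cdk1, the median was -3.72 and 7 of 7 fell. Ccna2, cyclin A2, had 20.2, 23.3, 23.2 and 31.9 CPM without glutamine, against 282, 288, 311 and 327 CPM with vehicle, and Cdk1 had 20.6, 21.6, 25.6 and 32.5 CPM, against 207, 212, 211 and 231 CPM. The 2 groups did not overlap in either gene (-3.72 ± 0.12, adjusted p = 2.0e-15 for Ccna2, -3.21 ± 0.11, adjusted p = 4.1e-15 for Cdk1). Among the genes of anaphase control, Cdc20, the activator of the anaphase promoting complex, had 15.2, 16.4, 17.7 and 18.1 CPM without glutamine, against 279, 276, 213 and 284 CPM with vehicle. Its partner Ube2c, the ubiquitin-conjugating enzyme of that complex, fell further (-5.25 ± 0.088, adjusted p = 2.5e-19), with 4.81, 6.54, 7.09 and 6.53 CPM without glutamine, against 225, 228, 206 and 231 CPM with vehicle. Bub1b had 27, 29.96, 28 and 36.6 CPM, against 193, 196, 179 and 210.4 CPM with vehicle.

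The kinases held the largest fall of all, that of Plk1, with 3.47, 5.07, 5.41 and 6.17 CPM without glutamine, against 205, 208, 163 and 206 CPM with vehicle (-5.38 ± 0.15, adjusted p = 7.1e-16). Before TMM scaling every glutamine-free library was below every unstimulated library for Plk1, which had 7.16, 7.46, 9.99 and 7.04 CPM unstimulated. That difference was not tested. Tpx2, which activates Aurora A on the spindle, had 17.4, 21.2, 22.6 and 24 CPM without glutamine, against 250.1, 263, 239.9 and 293 CPM with vehicle (-3.72 ± 0.10). In the chromosomal passenger complex, Incenp had 49, 51.6, 52.3 and 62.1 CPM without glutamine, against 319.5, 328, 259.7 and 306 CPM with vehicle (-2.60 ± 0.10), and Cdca8, its borealin subunit, changed by -3.02 ± 0.084. At the centromere, Cenpa had 10.8, 10.6, 11.9 and 12.1 CPM without glutamine, against 159.5, 164, 145 and 169 CPM with vehicle (-3.91 ± 0.069). Spc24, a subunit of the Ndc80 complex that grips microtubules, had 15.2, 18.7, 17.5 and 21.7 CPM, against 104, 99.7, 95.8 and 93 CPM (-2.53 ± 0.085). All of these libraries were separated by condition.

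The 10 motors and spindle proteins all fell, from -4.55 for Hmmr, a spindle assembly factor, to -3.35 for Kif11, the motor that separates spindle poles. Kif11 had 22.6, 24.6, 28.1 and 31.4 CPM without glutamine, against 227, 237, 264 and 285 CPM with vehicle. The cytokinesis genes Racgap1 (-2.87 ± 0.067) and Ect2, the exchange factor it recruits (-2.84 ± 0.13), fell by similar amounts. Top2a, the topoisomerase that untangles sister chromatids, had 142, 166, 168 and 209 CPM without glutamine, against 798, 826, 917 and 982 CPM with vehicle (-2.46 ± 0.11). Mki67, which coats mitotic chromosomes, had 49.2, 56.9, 65.3 and 80.9 CPM, against 697, 715, 669 and 765 CPM (-3.60 ± 0.12). The smallest falls were those of Pttg1 (-0.65 ± 0.075, adjusted p = 4.1e-07), Cks2 (-1.49 ± 0.06) and the checkpoint protein Mad2l1 (-2.07 ± 0.092). Pttg1 had 17.6, 18.3, 17.6 and 15.6 CPM without glutamine, against 25.5, 26.4, 24.5 and 24.5 CPM with vehicle, also without overlap. The myeloid list summed to 5.71 to 12.4 CPM without glutamine, against 3.95 to 6.02 CPM with vehicle. Cd68 made up most of these sums (mean 5.08 CPM without glutamine, against 3.08 CPM with vehicle). Itgax (0.353 against 0.610 CPM) and Cd14 (0.0474 against 0.129 CPM) were on the lower side without glutamine. Lyz2, the highest of the 12 markers after Cd68 without glutamine, was on the higher side, at a mean of 0.639 CPM. With vehicle no marker but Cd68 averaged above the 0.610 CPM of Itgax.

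**Figure D3:**
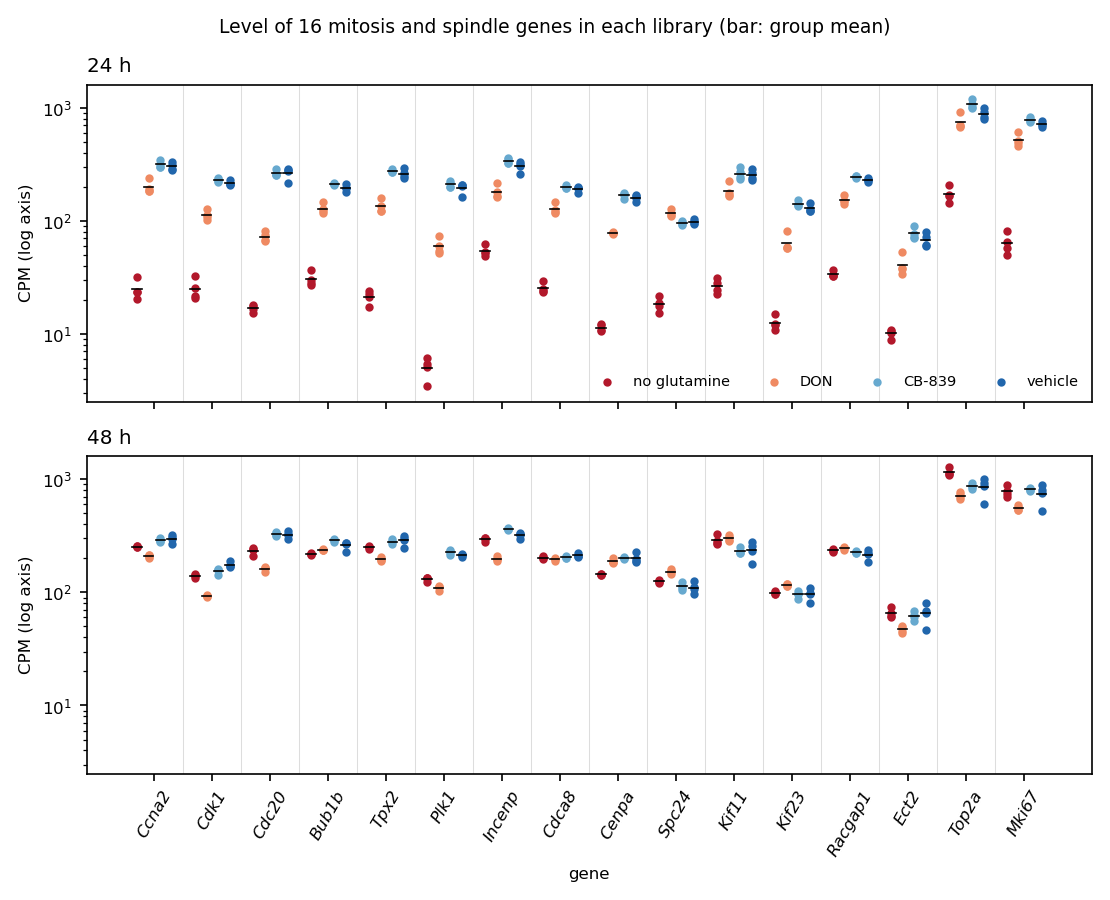
CPM on a log axis of 16 genes, 2 from each role with the highest mean level, in every library at 24 h (top) and 48 h (bottom), by condition, with the group mean as a bar (n = 4). At 24 h each gene is lowest without glutamine, with Plk1 at 3.47 to 6.17 CPM, and at 48 h Cdc20, Plk1 and Cdk1 with DON still lie below vehicle without overlap.

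With DON at 24 h most of the list was lower, by unequal amounts. 45 members fell and none rose, against 29.9% of genes that fell, with a median log2 fold change of -0.82 beside -0.0051 over all genes. Scaling by library totals alone in place of TMM raised the members' values by a median of 0.19 and gave 1 higher and 40 lower. Cdc20 fell most, with 65.5, 74.4, 67.6 and 81.5 CPM with DON, against 279, 276, 213 and 284 CPM with vehicle (-2.06 ± 0.10, adjusted p = 2.3e-12). Plk1 had 54.1, 59.3, 51.5 and 73.1 CPM with DON, against 205, 208, 163 and 206 CPM (-1.91 ± 0.12, adjusted p = 3.6e-10), and Aurka, Aurora kinase A, had 35, 34, 31.1 and 47.3 CPM, against 109, 113, 99.4 and 111 CPM (-1.75 ± 0.10). These are genes of late G2 and mitosis, and their DON libraries did not overlap the vehicle ones. Cyclins and Cdk1 had a median of -0.9996. Ccna2 had 182, 189.8, 182 and 240.0 CPM with DON, against 282, 288, 311 and 327 CPM with vehicle (-0.79 ± 0.10), and Cdk1 had 107, 112, 102 and 126 CPM, against 207, 212, 211 and 231 CPM (-1.13 ± 0.10). Bub1b had 122, 126, 116 and 145 CPM with DON (-0.80 ± 0.083), and Tpx2 had 123, 134, 121 and 159.8 CPM (-1.15 ± 0.093).

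Of the 8 roles, the centromere and kinetochore had the median nearest 0 with DON, a log2 fold change of -0.40 and 5 of 7 genes lower. Spc24 had 112, 126, 111 and 118 CPM with DON, against 104, 99.7, 95.8 and 93 CPM with vehicle, higher in every DON library before scaling, and after TMM scaling its log2 fold change was 0.057 ± 0.078, adjusted p = 0.55. Nuf2, another Ndc80 complex subunit (-0.19 ± 0.11, adjusted p = 0.14), and Mad2l1 (-0.12 ± 0.088, adjusted p = 0.26) did not pass either. Mad2l1 had 153, 154, 149 and 178 CPM with DON, against 132, 144, 166 and 164 CPM with vehicle, and the 2 groups overlapped. Cenpa, by contrast, had 77.4, 80.2, 77.2 and 75.5 CPM with DON, against 159.5, 164, 145 and 169 CPM (-1.23 ± 0.06). Among motors and cytokinesis genes, Kif23 had 57.4, 58.3, 56.9 and 81.3 CPM with DON, against 123, 128, 121 and 143 CPM with vehicle (-1.21 ± 0.11). Kif11 (-0.65 ± 0.10), Racgap1 (-0.78 ± 0.062) and Ect2 (-0.93 ± 0.12) fell by less. Incenp changed by -0.94 ± 0.10, Cdca8 by -0.79 ± 0.077 and Mki67 by -0.65 ± 0.11. Top2a had 674, 694, 707 and 918 CPM with DON, against 798, 826, 917 and 982 CPM with vehicle, so 1 DON library lay inside the vehicle range (-0.42 ± 0.11, adjusted p = 0.002). DON library D was the highest of its group for Ccna2, Kif11, Kif23 and Top2a. Myeloid markers summed to 11.4 to 25.3 CPM with DON, against 3.95 to 6.02 CPM with vehicle. Cd68 made up most of these sums (mean 12.2 CPM with DON, against 3.08 CPM with vehicle). Cd14 (0.0216 against 0.129 CPM) and Itgax (0.586 against 0.610 CPM) were on the lower side with DON. Mpo, the highest marker after Cd68 with DON, was on the higher side, at a mean of 1.43 CPM. With vehicle no marker but Cd68 averaged above the 0.610 CPM of Itgax.

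**Figure D4:**
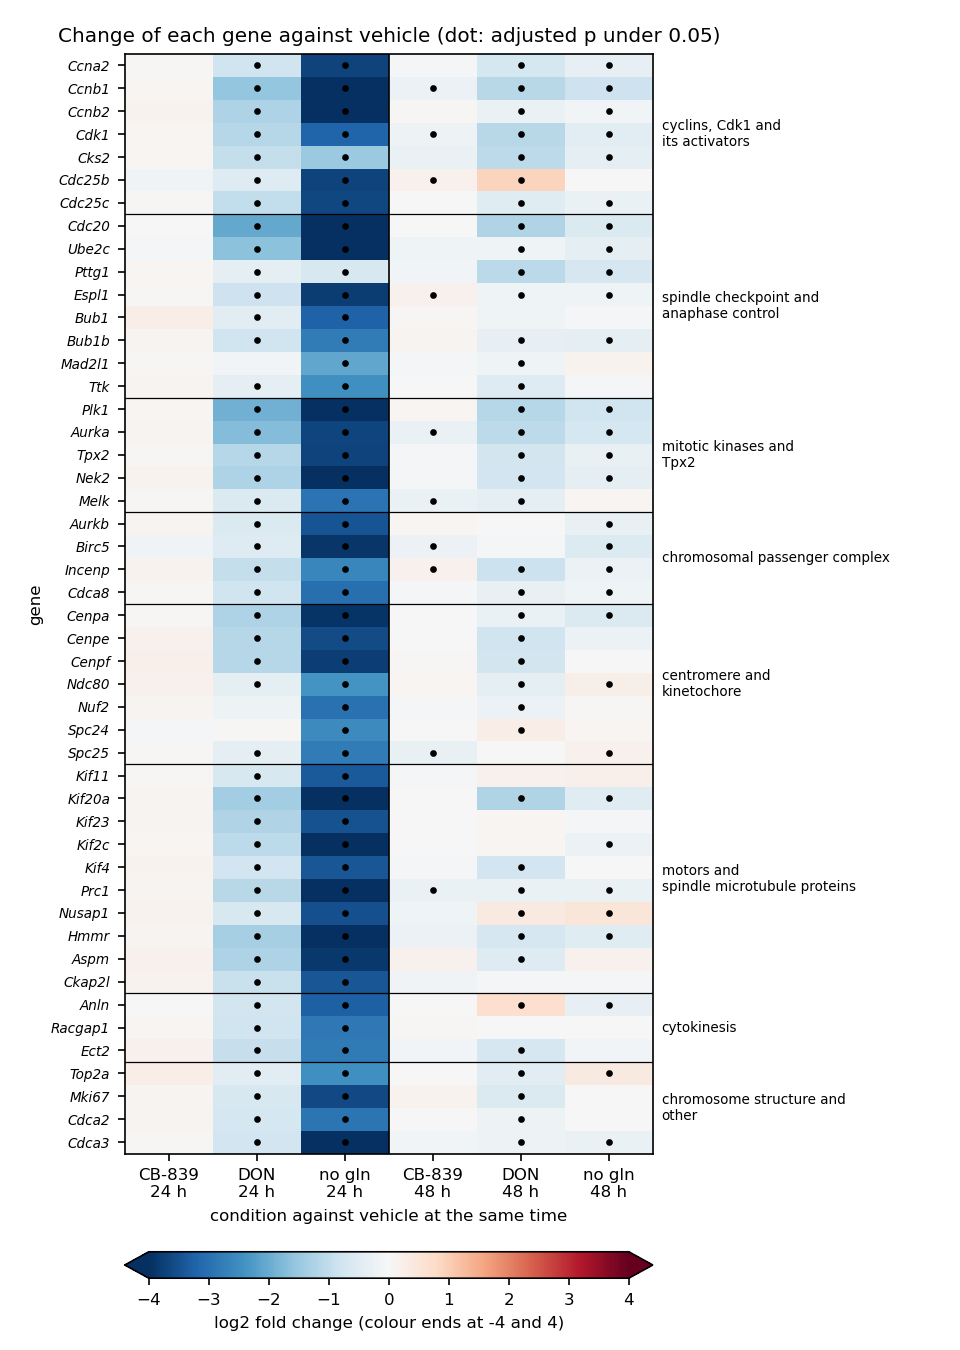
Log2 fold change of each of the 48 genes (rows, grouped by role) against vehicle at 24 h and 48 h for CB-839, DON and glutamine-free medium (columns), with a dot where the adjusted p is under 0.05. Glutamine-free cells at 24 h have a dot and a negative value in all 48 rows, the DON column at 24 h has a dot in 45, and at 48 h the DON column is reddest for Cdc25b and Anln.

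Set directly against each other at 24 h, glutamine-free cells were lower than DON cells in all 48 members, against 30.2% of genes, with a median of -2.63. Ube2c (-3.62 ± 0.085), Plk1 (-3.47 ± 0.15) and the survivin gene Birc5 (-3.35 ± 0.083) differed most, and Incenp (-1.66 ± 0.10), Cks2 (-0.54 ± 0.06) and Pttg1 (-0.25 ± 0.076, adjusted p = 0.0083) least. DON cells were lower than CB-839 cells in 46 members, against 30.8% of genes, with a median of -0.91. The lowest values were again those of Cdc20 (-2.04 ± 0.10), Plk1 (-1.997 ± 0.12) and Aurka (-1.87 ± 0.11). Nuf2 passed here (-0.29 ± 0.11, adjusted p = 0.028), while Mad2l1 (-0.17 ± 0.088, adjusted p = 0.10) and Spc24 (0.11 ± 0.077, adjusted p = 0.22) did not. Spc24 was called higher with DON under library totals alone and when just these 8 libraries were fitted. Between CB-839 and vehicle no member passed, against 4.95% of genes in either direction, and 4 members had an unadjusted p under 0.05, beside 3064 of 16269 genes. DESeq2 also called 0. The log2 fold changes were positive in 43 members and negative in 5, with a median of 0.096 beside 0.0046 over all genes. The CB-839 values ran from -0.13 ± 0.072 for Birc5, -0.13 ± 0.074 for Cdc25b and -0.056 ± 0.077 for Spc24 to 0.21 ± 0.14 for Cenpf, 0.27 ± 0.10 for Top2a and 0.27 ± 0.13 for Bub1. Replicate letters paired these libraries (r = 0.60 to 0.76), and with the letter as a block the count was 5 higher and 0 lower. In a fit of the 8 libraries alone with the block it was 24 and 2. The shares of all genes that passed in these blocked fits are not given here, so the counts cannot be set beside them.

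Another 7 lists of cell cycle genes were read from the same fits at 24 h, in which 28.9% of all genes tested were lower and 30% higher without glutamine, and 29.9% lower and 28.1% higher with DON. Other spindle and cytokinesis genes had 30 of 30 lower and 0 higher (median -2.75) without glutamine and 28 of 30 lower and 1 higher (median -0.79) with DON. Examples are Gtse1, a G2 and S phase expressed protein (-2.51 ± 0.054 without glutamine, -1.40 ± 0.051 with DON) and the motor Kif14 (-4.11 ± 0.10 and -1.11 ± 0.08). Kpna2, a nuclear import receptor (-1.15 ± 0.048), and the motor Kifc1 (-1.09 ± 0.081) also fell with DON, as did the motor Kif22 (-3.50 ± 0.081) and the spindle protein Tacc3 (-3.29 ± 0.086) without glutamine. DNA replication genes had 44 of 44 lower and 0 higher (median -1.12) without glutamine and 17 of 44 lower and 6 higher (median -0.11) with DON. Tyms, thymidylate synthase, changed by -2.32 ± 0.058 without glutamine and -0.63 ± 0.055 with DON, and Ccne1, cyclin E1, by -1.69 ± 0.051 and -0.39 ± 0.049. The replication medians of -1.12 and -0.11 stand beside those of -3.50 and -0.82 for the mitosis genes. That difference between lists was not tested.

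The counts of the remaining lists stand beside the same shares of all genes, 28.9% lower and 30% higher without glutamine and 29.9% lower and 28.1% higher with DON. Regulators of mitotic transcription had 14 of 23 lower and 6 higher (median -0.44) without glutamine and 11 of 23 lower and 6 higher (median -0.16) with DON. Foxm1 (-2.79 ± 0.069) and Mybl2 (-2.41 ± 0.091), transcription factors of G2 genes, fell without glutamine together with E2f8 (-2.49 ± 0.081) and E2f2 (-2.22 ± 0.093). With DON the smallest adjusted p-values were those of Tfdp2, an E2F partner, which rose (1.04 ± 0.069), and of E2f3 (-0.62 ± 0.067), E2f4 (-0.53 ± 0.061) and Nfyc, a subunit of NF-Y (-0.51 ± 0.06), which fell. Genes of the anaphase promoting complex had 12 of 17 lower and 1 higher (median -0.58) without glutamine and 11 of 17 lower and 0 higher (median -0.19) with DON, with Fzr1, its other activator, at -1.57 ± 0.088 and -0.95 ± 0.087. Condensin and cohesin genes had 18 of 21 lower and 2 higher (median -0.92) without glutamine and 15 of 21 lower and 0 higher (median -0.30) with DON, with Ncapd2, a condensin subunit, at -2.22 ± 0.07 and -0.48 ± 0.067. The centromere network and outer kinetochore had 31 of 32 lower and 0 higher (median -1.46) without glutamine and 13 of 32 lower and 5 higher (median -0.10) with DON, with Hjurp, the loading chaperone of Cenpa, at -1.59 ± 0.053 and -0.37 ± 0.052. Phosphatases and kinases of mitotic entry and exit had 11 of 15 lower and 1 higher (median -0.63) without glutamine and 10 of 15 lower and 1 higher (median -0.30) with DON. Ensa, an inhibitor of the phosphatase PP2A in mitosis, rose in both (1.07 ± 0.043 without glutamine, 0.49 ± 0.043 with DON), and Cks1b, the paralog of Cks2, fell in both (-1.82 ± 0.075 and -0.61 ± 0.072).

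**Figure D5:**
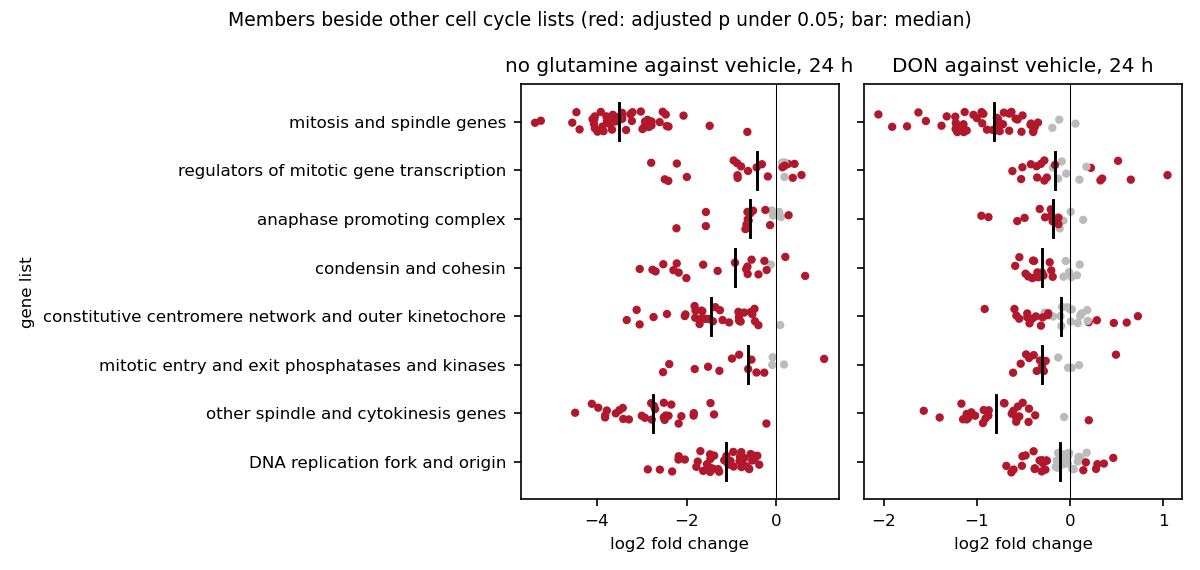
Log2 fold change at 24 h of each gene (points, red where the adjusted p is under 0.05) in the 48 mitosis and spindle genes and in 7 other cell cycle lists, for glutamine-free medium (left) and DON (right) against vehicle, with the list median as a bar. The members have the lowest median in both panels, followed by the other spindle and cytokinesis genes.

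At 48 h the members' levels without glutamine lay nearer to those with vehicle than at 24 h. 26 members were lower than with vehicle, against 26.3% of genes, and 4 were higher, against 28%, with a median log2 fold change of -0.20 beside 0.022 over all genes. Under library totals alone the split was 21 lower and 7 higher, and in the fit of all 52 libraries it was 9 and 0. Ccnb1 had 97.7, 99, 102 and 98.4 CPM without glutamine, against 169, 179, 153 and 159 CPM with vehicle (-0.83 ± 0.054, adjusted p = 4.4e-10). Plk1 had 134, 134, 135 and 123 CPM, against 213, 206, 213 and 220.3 CPM (-0.80 ± 0.055, adjusted p = 8.7e-10). Neither gene overlapped between the groups, and Aurka was next (-0.70 ± 0.052). Cyclins, kinases and passenger proteins were lower in 6 of 7, 4 of 5 and 4 of 4 members, whereas the kinetochore had 1 lower and 2 higher of 7. Top2a had 1147, 1095, 1117 and 1295 CPM without glutamine, against 920.1, 1010.0, 609 and 864 CPM with vehicle, higher in every library (0.35 ± 0.10, adjusted p = 0.0041). Nusap1, which bundles spindle microtubules (0.50 ± 0.076), and Ndc80 (0.25 ± 0.068) were also higher, as was Spc25. Vehicle library C was the lowest of its group for Top2a, Mki67 and the members' share of counts (0.698%). The vehicle libraries at 48 h differed more from each other than those of any other group (chi-square per degree of freedom up to 155, against at most 39.2). The higher calls without glutamine numbered 3 to 7 as single libraries were left out.

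DON cells at 48 h still had 35 members below vehicle, against 35.6% of genes, and 4 above, against 35.6%, with a median of -0.34 beside -0.0021 over all genes. Library totals alone shifted the values up by a median of 0.19 and gave 25 lower and 11 higher, and the fit of all 52 libraries gave 23 and 2. Cdc20 had 164, 168, 152 and 165 CPM with DON, against 323, 296, 346 and 331 CPM with vehicle (-1.19 ± 0.069, adjusted p = 2.1e-11), and Plk1 had 111, 113, 103 and 114 CPM, against 213, 206, 213 and 220.3 CPM (-1.14 ± 0.055, adjusted p = 1.6e-12). Kif20a, a motor of cytokinesis, fell by a similar amount (-1.21 ± 0.048). Cdk1 had 91.7, 92.4, 94.2 and 92.2 CPM with DON, against 172, 174, 189.9 and 167 CPM with vehicle (-1.12 ± 0.06). These groups did not overlap. In the other direction, Cdc25b had 171, 166, 157 and 170.4 CPM with DON, against 80.8, 77.5, 78.5 and 80.2 CPM with vehicle (0.88 ± 0.048, adjusted p = 8.7e-12). Anln, anillin of the cytokinetic ring, had 61, 62.7, 68.9 and 63.7 CPM, against 37, 42.1, 27.8 and 34.7 CPM (0.67 ± 0.079, adjusted p = 4.3e-07). Both were higher in every DON library, and Nusap1 (0.36 ± 0.076) and Spc24 (0.27 ± 0.076) were the other members that rose. The 9 members that did not pass were Bub1 (-0.16 ± 0.12), Ckap2l (-0.091 ± 0.089), Birc5 (-0.062 ± 0.066), Aurkb (-0.022 ± 0.056), Racgap1 (-0.0032 ± 0.049), Spc25 (0.013 ± 0.066), Kif2c (0.077 ± 0.046), Kif23 (0.091 ± 0.062) and Kif11 (0.17 ± 0.091). Myeloid markers summed to 24.7 to 30.1 CPM with DON, against 2.30 to 3.59 CPM with vehicle. Cd68 again made up most of these sums (mean 23.2 CPM with DON, against 2.12 CPM with vehicle), and the next marker, Mpo, averaged 1.36 CPM with DON, against 0.186 CPM with vehicle.

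Glutamine-free cells at 48 h were above DON cells in 29 members, against 34.6% of genes, and below in 9, against 34.1%. Top2a (0.78 ± 0.10), the chromokinesin Kif4 (0.76 ± 0.089) and Kif20a (0.74 ± 0.048) were the furthest above, and Anln (-0.99 ± 0.08), Cdc25b (-0.90 ± 0.048) and Birc5 (-0.47 ± 0.066) the furthest below. In the fit of all 52 libraries the counts were 18 and 2. DON cells were below CB-839 cells in 29 members, against 34.7% of genes, and above in 7, against 35.7%, or 24 and 2 in the fit of all 52 libraries. Plk1 (-1.21 ± 0.055), Cdc20 (-1.19 ± 0.069) and Kif20a (-1.18 ± 0.048) stood at 1 end and Cdc25b (0.72 ± 0.048), Anln (0.66 ± 0.079) and Nusap1 (0.54 ± 0.076) at the other. CB-839 cells at 48 h were below vehicle in 7 members, against 6.73% of genes, and above in 3, against 8.5%, all by small amounts. The lowest values were those of Spc25 (-0.31 ± 0.066, adjusted p = 0.0037), Prc1 (-0.27 ± 0.087, adjusted p = 0.041) and Melk (-0.26 ± 0.066, adjusted p = 0.011), and the highest those of Espl1, the separase (0.17 ± 0.051, adjusted p = 0.027), Aspm (0.17 ± 0.12, adjusted p = 0.39) and Incenp (0.17 ± 0.046, adjusted p = 0.017). Ccnb1, Cdk1, Aurka and Birc5 were the other members lower and Cdc25b the other one higher. In the fit of all 52 libraries no member passed, and a fit of the 8 libraries alone gave 3 lower and 0 higher. Without CB-839 library A, B or C the higher calls numbered 1, 0 and 0, and the lower calls ran from 4 (without CB-839 library A or C) to 11 (without vehicle library C) as single libraries were left out.

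The change from 24 to 48 h was tested within each condition and then against vehicle. Without glutamine 47 members were higher at 48 h, against 27.6% of genes, with a median log2 change of 3.33. Ccnb2 rose most (5.31 ± 0.076), with Ube2c (4.75 ± 0.083) and Plk1 (4.70 ± 0.12) next, and Mad2l1 (2.28 ± 0.084) and Cks2 (1.05 ± 0.078) rose least. Pttg1 did not pass (-0.023 ± 0.091, adjusted p = 0.85). With DON 29 members were higher at 48 h, against 31.2%, and 4 lower, against 32.3%, with a median of 0.58. Ccnb2 (1.98 ± 0.062), Anln (1.61 ± 0.093) and Ube2c (1.27 ± 0.069) rose most, and Pttg1 (-0.73 ± 0.092), Cdk1 (-0.30 ± 0.085) and Kif4 (-0.26 ± 0.11) fell. The lower calls with DON numbered 2 under library totals alone and with no filter on low counts, and 1 in the fit of all 52 libraries. Without DON library D of 24 h or library A of 48 h they numbered 2. With CB-839 10 members were higher, against 24.5%, and 13 lower, against 23.5%. The extremes were Ccnb2 (0.95 ± 0.059), Bub1b (0.45 ± 0.068) and Nek2 (0.41 ± 0.076) above and Melk (-0.65 ± 0.073), Cdk1 (-0.57 ± 0.084) and Kif23 (-0.55 ± 0.089) below. Replicate letters paired these CB-839 libraries, and with the block in a fit of those 8 the counts were 16 higher and 25 lower, without shares of all genes from that fit. In the fit of all 52 libraries they were 1 and 5.

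The effect of glutamine-free medium differed between 48 and 24 h in 47 members, by an interaction term that was positive in each (median 3.37), against 16.5% of genes. It was largest for Ube2c (4.91 ± 0.10, adjusted p = 6.7e-27), Plk1 (4.59 ± 0.16) and Ccnb2 (4.27 ± 0.095), smaller for Mad2l1 (2.22 ± 0.11) and Cks2 (1.10 ± 0.11), and did not pass for Pttg1 (-0.0027 ± 0.13, adjusted p = 0.99). The DON effect differed in 29 members, with 28 positive, against 18.2% of genes, and 1 negative, against 22.1%. In the fit of all 52 libraries 15 terms were positive and 1 negative. Ube2c (1.43 ± 0.10), Cdc25b (1.37 ± 0.091) and Anln (1.37 ± 0.13) had the highest terms, Pttg1 had the negative one (-0.71 ± 0.13, adjusted p = 3.4e-05), and Ttk (-0.15 ± 0.14) and Cks2 (-0.10 ± 0.11) did not pass. Kif23 (1.29 ± 0.13), Cenpa (0.94 ± 0.089), Cdc20 (0.85 ± 0.12) and Plk1 (0.75 ± 0.14) were among those whose DON effect was less negative at 48 h. For CB-839 no member passed, against 3.5% of genes in either direction. There 9 members had an unadjusted p under 0.05, beside 3058 of 17257 genes. DESeq2 called 1 member higher and 3 lower, and no share of genes is given for these calls. The CB-839 terms ran from -0.36 ± 0.14 for Prc1, -0.36 ± 0.12 for Aurka and -0.33 ± 0.18 for Hmmr to 0.088 ± 0.11 for Spc24, 0.14 ± 0.11 for Espl1 and 0.31 ± 0.091 for Cdc25b.

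Histone marks at the members' starts were read from the authors' peak lists at 48 h, made by CUT&RUN, in which an antibody directs cleavage of nearby chromatin. There was 1 list per mark and condition, from 2 samples each, so no test is possible. A member was counted where a listed peak came within 1000 bases of its annotated start. H3K27ac, a mark of active promoters, was listed at 10 members without glutamine (20.8%, against 28.6% of genes tested at 48 h) and at 25 with vehicle (52.1%, against 42%). Both conditions listed a peak at 9 members, vehicle alone at 16, glutamine-free medium alone at 1 (Nusap1), and neither at 22. Plk1, Ccna2, Cenpa, Kif23, Racgap1 and Ect2 were among the 16, and Cdc25b, Ube2c, Pttg1, Tpx2, Spc24, Top2a and Mki67 among the 22. The lists differ in length, with 6687 peaks without glutamine and 9681 with vehicle. The DON and CB-839 lists held 33 and 117 H3K27ac peaks, none at a member, against 0.21% and 0.643% of tested genes. H3K27me3, a repressive mark, was listed at no member start in any condition, against 7.20% of tested genes without glutamine, 3.74% with DON, 10.95% with CB-839 and 10.6% with vehicle.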

How the data were processed

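RNA was measured in 52 libraries, and histone marks at 48 h in 20 chromatin samples. The deposited gene table holds raw counts made by the authors with featureCounts 2.0.1 on GENCODE M25 (mm10), with paired reads and no strand option, per the file headers. The submitters' processing notes also name FastQC, STAR, Bowtie2, MACS2 and deepTools, without versions in the sources used here. The authors' peak lists carry a −log10 score of the irreproducible discovery rate (IDR), kept at 0.05, and exon length, deposited as a score column of bases, was used only for RPKM.

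Counts were fitted with edgeR 4.0.16 quasi-likelihood tests in R 4.3.3 (TMM scaling, robust dispersion, low-count filter with a minimum count of 10, Benjamini-Hochberg adjustment over all genes tested, adjusted p under 0.05). Separate fits held the vehicle and unstimulated groups, each time point, and 24 and 48 h together. CPM are counts scaled to a library total of 1000000, without TMM. Library totals of 25626587 to 51005409 counts limit precision for counting error only. Scripts were tested on simulated data. Replicate libraries differed beyond sampling noise and none were merged. Libraries with the same letter deviated together (every r over 0.1) in 6 comparisons, namely CB-839 and DON against vehicle at 4 h, CB-839 against vehicle at 24 h, glutamine-free against DON at 24 h, DON against CB-839 at 48 h and CB-839 at 48 against 24 h, although nothing given states what equal letters have in common. Named were the 2 highest members of each role, the 3 highest and 3 lowest fold changes per comparison, members against the rest, and up to 4 genes by adjusted p in each of 7 other cell cycle lists. A further 6 lists mark cell types. The members and lists were chosen with earlier results of these data known. DESeq2 1.42.0, other scalings, no filter, other sets of libraries, a replicate block and leaving out each library were tried as alternatives.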

Additional observations from a re-analysis of the deposited data

Results flagged for a closer look

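In 28 of the 221 groups of 4 libraries tested, 1 library lay apart from the other 3 by Dixon's criterion, which chance alone meets in about 1 group in 20. Library C of the 4 h groups made up most of them. Without glutamine at 4 h, library C had a summed level of the 48 genes of 581 CPM. In the same library the members set apart were Ccna2 (14.7 CPM, against 2.32 to 3.35), Cdk1 (11.7 CPM, against 1.82 to 2.10), Cdc20 (18.5 CPM, against 6.80 to 8.06), Bub1b (15.7 CPM, against 4.60 to 6.21), Tpx2 (16.6 CPM, against 2.77 to 4.11), Plk1 (10.5 CPM, against 1.99 to 2.203), Cdca8 (14.6 CPM, against 3.01 to 4.26), Racgap1 (16.6 CPM, against 4.60 to 5.94) and Top2a (66.6 CPM, against 17.9 to 23.5). With DON at 4 h, library C had a summed level of 393 CPM. With CB-839 at 4 h, library C stood apart in Bub1b (10.9 CPM, against 5.69 to 6.49), Kif11 (12.3 CPM, against 7.36 to 8.11) and Ect2 (3.65 CPM, against 1.76 to 1.89), and with vehicle in Kif23 (8.59 CPM, against 6.35 to 6.66). Among unstimulated libraries, library C (in Cenpa, library B) was apart in Bub1b (18.6 CPM, against 13 to 13.6), Plk1 (9.99 CPM, against 7.04 to 7.46), Cenpa (95.5 CPM, against 82.4 to 83) and Kif11 (17 CPM, against 12.5 to 13.1). At 24 h, DON library D was apart in Ccna2 (240.0 CPM, against 182 to 189.8), Kif11 (225 CPM, against 166 to 175), Kif23 (81.3 CPM, against 56.9 to 58.3) and Top2a (918 CPM, against 674 to 707). Glutamine-free library D was apart in Racgap1 (36.9 CPM, against 32.4 to 33.1). CB-839 library B was apart in Cdc20 (288 CPM, against 253 to 258), and vehicle library C was low in Cdc20 (213 CPM, against 276 to 284) and Plk1 (163 CPM, against 205 to 208). At 48 h, glutamine-free library D was low in Plk1 (123 CPM, against 134 to 135). The difference between the 48 h and 24 h effects passed its interaction test in 47 members for glutamine-free medium, all positive, and in 28 positive and 1 negative for DON.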

How the results depend on the processing

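Over all alternatives 700 of 811 recomputed counts of members stayed within 1.5 times the value reported, and 111 did not. Of 5842 recomputed log2 fold changes of named members, 5535 kept their direction and side of the threshold, 193 lost the call, 52 gained it and 62 changed sign. Apart from Cdc25b in vehicle cells at 48 h against unstimulated ones, every value that changed sign had not passed the test in the first place. The cause of these changes was not tested. The recomputed counts below stand without the shares of all genes in the same fits. With no filter on low counts the number of members was 0 lower instead of 1 for vehicle at 48 h against unstimulated, 0 higher instead of 1 for CB-839 against vehicle at 4 h. There were also 0 lower instead of 1 for glutamine-free against vehicle at 4 h, 0 higher instead of 3 for CB-839 against vehicle at 48 h. It gave 3 lower instead of 5 for vehicle at 48 against 24 h, 2 lower instead of 4 for DON at 48 against 24 h. There the log2 fold changes that changed sign were those of Cdc20 at 0.0057 for vehicle at 4 h against unstimulated, Pttg1 at 0.15 for vehicle at 24 h against unstimulated, Cdc25b at 0.018 and Pttg1 at 0.13 for vehicle at 48 h against unstimulated, Spc25 at -0.0026 for DON against vehicle at 48 h, Pttg1 at 0.025 for glutamine-free at 48 against 24 h, Pttg1 at 0.057 for the glutamine-free interaction. Under library totals alone the number of members was 2 lower instead of 0 for vehicle at 24 h against unstimulated, 2 lower instead of 1 for vehicle at 48 h against unstimulated. There were also 0 higher instead of 1 for CB-839 against vehicle at 4 h, 0 lower instead of 1 for glutamine-free against vehicle at 4 h. It gave 1 higher instead of 0 for DON against vehicle at 24 h, 11 higher instead of 4 for DON against vehicle at 48 h. Further counts were 7 higher instead of 4 for glutamine-free against vehicle at 48 h, 1 higher instead of 0 for DON against CB-839 at 24 h. The same fits gave 2 lower instead of 4 for DON at 48 against 24 h, 1 higher instead of 0 for the CB-839 interaction. There the log2 fold changes that changed sign were those of Cdc25b at -0.29 for vehicle at 24 h against unstimulated, Mad2l1 at 0.068 for DON against vehicle at 24 h, Aurkb at 0.17, Birc5 at 0.13, Bub1 at 0.023, Ckap2l at 0.094 and Racgap1 at 0.18 for DON against vehicle at 48 h, Mad2l1 at 0.0059 for DON against CB-839 at 24 h. Under RLE scaling the log2 fold changes that changed sign were those of Cdc25b at -0.064 for vehicle at 24 h against unstimulated, Racgap1 at 0.0028 for DON against vehicle at 48 h. In DESeq2 the number of members was 1 higher instead of 0 and 3 lower instead of 0 for the CB-839 interaction. Sign changes were seen for Cdc25b at -0.064 for vehicle at 24 h against unstimulated, Racgap1 at 0.0024 for DON against vehicle at 48 h. In fits of the compared libraries alone the number of members was 0 lower instead of 1 for vehicle at 48 h against unstimulated, 2 higher instead of 1 for CB-839 against vehicle at 4 h. There were also 0 lower instead of 1 for glutamine-free against vehicle at 4 h, 0 higher instead of 3 and 3 lower instead of 7 for CB-839 against vehicle at 48 h. It gave 1 higher instead of 0 for DON against CB-839 at 24 h, 3 lower instead of 5 for vehicle at 48 against 24 h. Further counts were 23 lower instead of 13 for CB-839 at 48 against 24 h, 1 lower instead of 0 for the CB-839 interaction. It also changed the sign of Pttg1 at 0.019 for vehicle at 24 h against unstimulated. In fits of the compared libraries alone with the replicate block the number of members was 0 lower instead of 1 for vehicle at 48 h against unstimulated, 5 higher instead of 1 and 1 lower instead of 0 for CB-839 against vehicle at 4 h. There were also 24 higher instead of 0 and 2 lower instead of 0 for CB-839 against vehicle at 24 h, 0 higher instead of 3 and 0 lower instead of 7 for CB-839 against vehicle at 48 h. It gave 1 higher instead of 0 for DON against CB-839 at 24 h, 3 higher instead of 12 and 2 lower instead of 5 for vehicle at 48 against 24 h. Further counts were 16 higher instead of 10 and 25 lower instead of 13 for CB-839 at 48 against 24 h, 1 lower instead of 0 for the CB-839 interaction. Signs changed there for Pttg1 at 0.019 for vehicle at 24 h against unstimulated, Racgap1 at 0.0009 for DON against vehicle at 48 h, Pttg1 at 0.0054 for the glutamine-free interaction. In 1 fit of all 52 libraries the number of members was 0 lower instead of 1 for vehicle at 48 h against unstimulated, 2 higher instead of 1 for CB-839 against vehicle at 4 h. There were also 2 lower instead of 1 for glutamine-free against vehicle at 4 h, 0 higher instead of 3 and 0 lower instead of 7 for CB-839 against vehicle at 48 h. It gave 2 higher instead of 4 and 23 lower instead of 35 for DON against vehicle at 48 h, 0 higher instead of 4 and 9 lower instead of 26 for glutamine-free against vehicle at 48 h. Further counts were 2 higher instead of 7 for DON against CB-839 at 48 h, 18 higher instead of 29 and 2 lower instead of 9 for glutamine-free against DON at 48 h. The same fits gave 3 higher instead of 12 and 1 lower instead of 5 for vehicle at 48 against 24 h, 1 higher instead of 10 and 5 lower instead of 13 for CB-839 at 48 against 24 h. The same fits gave 1 lower instead of 4 for DON at 48 against 24 h, 15 higher instead of 28 for the DON interaction. Sign changes were seen for Pttg1 at 0.035 for vehicle at 24 h against unstimulated, Spc24 at -0.012 for DON against vehicle at 24 h, Kif23 at -0.014, Kif2c at -0.028 and Spc25 at -0.092 for DON against vehicle at 48 h. With library C of all 4 h groups left out, chosen after seeing the data, the number of members was 2 higher instead of 1 for CB-839 against vehicle at 4 h, 17 lower instead of 1 for glutamine-free against vehicle at 4 h. With the replicate block the number of members was 2 higher instead of 1 and 2 lower instead of 1 for glutamine-free against vehicle at 4 h, 5 higher instead of 0 for CB-839 against vehicle at 24 h. There were also 1 higher instead of 0 for the CB-839 interaction. Sign changes were seen for Pttg1 at 0.0006 for the glutamine-free interaction. With a 2500-base window H3K27me3 peaks were listed at 2 members in the vehicle list and 3 members in the CB-839 list, instead of 0. Leaving out 1 library at a time gave 0 to 1 lower for vehicle at 48 h against unstimulated, 0 to 1 higher for CB-839 against vehicle at 4 h, 0 to 1 higher for glutamine-free against vehicle at 4 h. The next ranges were 0 to 12 lower for glutamine-free against vehicle at 4 h, 0 to 3 higher for CB-839 against vehicle at 48 h, 4 to 11 lower for CB-839 against vehicle at 48 h. The next ranges were 3 to 7 higher for glutamine-free against vehicle at 48 h, 3 to 6 lower for vehicle at 48 against 24 h, 2 to 5 lower for DON at 48 against 24 h. The next ranges were 0 to 1 higher for the CB-839 interaction, 0 to 2 lower for the CB-839 interaction. Log2 fold changes of single members that changed sign when 1 library was left out ranged from -0.191 to 0.148 for Cdc20 (vehicle at 4 h against unstimulated), -0.0033 to 0.0808 for Cdc25b (vehicle at 24 h against unstimulated), -0.0423 to 0.0298 for Pttg1 (vehicle at 24 h against unstimulated). Further ranges were -0.145 to 0.0609 for Pttg1 (vehicle at 48 h against unstimulated), -0.757 to 0.17 for Melk (CB-839 against vehicle at 4 h), -0.347 to 0.0961 for Aurkb (DON against vehicle at 4 h). Further ranges were -0.484 to 0.0216 for Cenpe (DON against vehicle at 4 h), -0.119 to 0.703 for Ndc80 (glutamine-free against vehicle at 4 h), -0.0558 to 0.0046 for Aurkb (DON against vehicle at 48 h). Further ranges were -0.101 to 0.0234 for Birc5 (DON against vehicle at 48 h), -0.0495 to 0.0445 for Racgap1 (DON against vehicle at 48 h), -0.0379 to 0.064 for Spc25 (DON against vehicle at 48 h). Further ranges were -0.0716 to 0.0095 for Pttg1 (glutamine-free at 48 against 24 h), -0.167 to 0.0212 for Cks2 (the DON interaction), -0.0803 to 0.129 for Pttg1 (the glutamine-free interaction). A stricter IDR of 0.01 left no H3K27ac peaks in the vehicle, CB-839 and glutamine-free lists, so it gave no value there. The replicate letters paired the libraries in 6 comparisons, and in the others the fit with the block is a setting only. At 4 h the members took at most 0.0581% of counts. Top2a, at a mean of 28.4 CPM with DON there, had an SE of 0.39 for DON against vehicle. The part of total counts in the spread at 4 h was not tested.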
